A study of Drosophila melanogaster with 8 samples.

Results

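The GABA genes of the fly head that could be read on these arrays were Gad1, Gabat, Gat, Lcch3 and GABA-B-R3. They were taken by name from the annotated spots of a 2-colour cDNA array, with the spots of a gene averaged on each array, and made up 5 of 6793 named genes and 12 of 27648 spots. They belong to a list of 12 genes for GABA synthesis, breakdown, transport and reception, of which 6 were among the named spots. The other named gene, Ssadh, which acts after Gabat in GABA breakdown, had a value on only 2 arrays. VGAT, Rdl, Grd, CG8916, GABA-B-R1 and GABA-B-R2 are not analysed here. Heads came from unmated Oregon-R wild-type males, 3 to 4 days old at the start, whose food held pentylenetetrazole (PTZ) during 7 days, followed by 3 days of sodium valproate (NaVP) food. The first group was collected on day 10, when valproate ended, and the second on day 14, after 4 more days on normal food (n = 4 arrays each). Every array carried head RNA of treated flies in one dye and head RNA of parallel flies kept on normal food in the other, so the controls had neither drug. On 2 of the 4 arrays in each group the dyes were exchanged. RNA came from pooled heads of flies kept 30 to a vial, and the series text calls the 4 sets biological replicates. Sample labels state 8 mg/ml PTZ and 0.33 mg/ml valproate and the series text 0.33 and 24 mg/ml, so the doses are unsettled.

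GABA is the main fast inhibitory transmitter of the insect brain. It is made from glutamate by glutamate decarboxylase, acts on chloride channels and on G-protein-coupled GABA-B receptors, is cleared from the synapse by a membrane transporter, and is broken down in mitochondria by GABA transaminase. PTZ blocks GABA-gated chloride channels and provokes seizures. Valproate is an antiepileptic drug that, in mammals, slows GABA breakdown among other actions, so these genes stand near the targets of both drugs.

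All values below are log2 ratios of treated over control RNA after each array was centred on its median; they are differences, and the arrays give no levels. Arrays held values for 40.5% to 72.0% of spots, and with 4 arrays a day precision is limited by their number. The direction of the values rests on a reading of the deposited ratios that was settled from the data and not from a statement. Medians over the print blocks, groups of spots printed together, correlated above 0 in all 16 pairs of arrays with opposite dye orientation (0.08 to 0.84), with named spots on one array set against unnamed spots on the other. They did so too in all 12 pairs of like orientation (0.12 to 0.73). The ratios were therefore read as Cy5 over Cy3 on every array, and the sign of the swapped arrays was turned. After this turn, day 10 arrays of opposite orientation correlated below 0 over all features (-0.45 to -0.16), and those of like orientation above 0 (0.19 and 0.42). Since arrays of opposite orientation then opposed each other, another reading took the swapped arrays as already turned by the authors. It is also given for the fitted values of the GABA genes and for medians of the related genes and marker lists. Under either reading the overall sign assumes Cy5 on top of the ratio.

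At day 10 no change in any of the 5 GABA genes could be told from the error of the arrays: 0 of 5 passed limma's test at an adjusted p of 0.05, against 0 of 11509 features tested (0%). None had an unadjusted p under 0.05, which 6.67% of all features had. Their fitted ratios ran from -0.18 for Gabat to 0.28 for GABA-B-R3, with a median of 0.14, while the median of all features was 0.04. Of the 5, 4 lay above 0, as did 56.4% of all features. The 3 genes with values on all 4 arrays, Gad1, Gabat and Lcch3, were each higher in treated RNA on the arrays with treated RNA in Cy5 and lower on the swapped arrays. So 0 of 3 lay on one side of 0 on all 4 arrays, where 6.35% of features lay above and 2.49% below 0 throughout. The division that all 3 showed was that of 24.3% of features with 4 values. For Lcch3 it rested on a value near 0 on swapped replicate 3 (-0.04), where its spots read -0.153 and 0.075. At day 14 only Gad1 and Lcch3 could be tested, and both lay close to 0: 0 of 2 passed, against 0 of 7529 features (0%). Neither had an unadjusted p under 0.05 there, which 3.98% of features had, and 1 of 2 lay above 0, beside 49.3% of features.

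**Figure D1:**
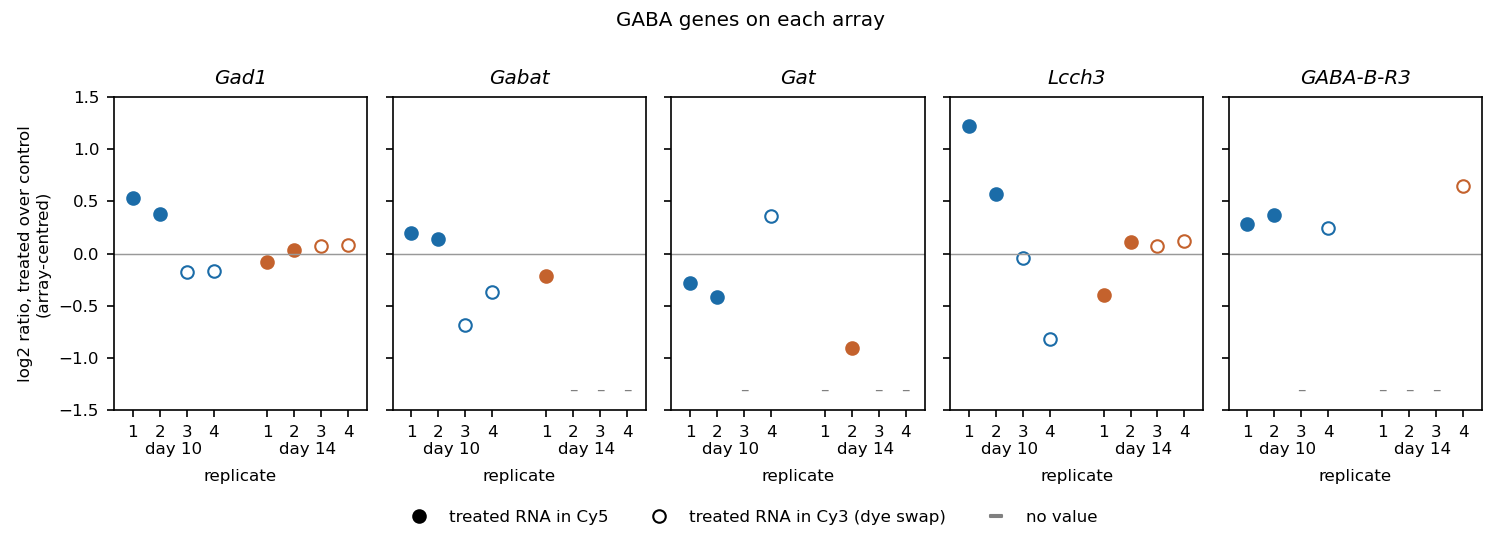
Array-centred log2 ratio of treated over control RNA (vertical axis) on each array (horizontal axis, replicates 1 to 4 of day 10 and of day 14) for the 5 GABA genes. Filled points are arrays with treated RNA in Cy5, open points swapped arrays, and a grey dash marks an array without a value; at day 10 filled and open points lie on opposite sides of 0 for Gad1, Gabat, Gat and Lcch3.

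Gad1, the glutamate decarboxylase that makes GABA in neurons, stood at 0.53 and 0.38 on day 10 replicates 1 and 2 and at -0.18 and -0.16 on the swapped replicates 3 and 4. Both unswapped arrays lay above 0 and both swapped arrays below it. The fitted day 10 ratio of Gad1 was 0.14 ± 0.14 (SE, n = 4, adjusted p = 0.785 with limma), with a 95% interval from -0.19 to 0.47. The interval runs from 0.879-fold to 1.38-fold of the control level under this reading. On day 14 Gad1 was at -0.08, 0.03, 0.08 and 0.08 on replicates 1 to 4. Leaving out day 10 replicate 1 gave a day 10 ratio of 0.04. The 4 day 14 values spread far less than those of day 10, with an SD of 0.07 against 0.37. The fitted day 14 ratio was 0.03 ± 0.14 (SE, n = 4, adjusted p = 0.999 with limma), with an interval from -0.28 to 0.33, and it was -0.04 without day 14 replicate 3 and -0.05 without day 14 replicate 4. Gad1 had 2 pairs of spots, and the second pair gave values only on replicate 3 of each day. There, its spots stood at -0.17 and 0.13 on day 10, and at 0.29 and 0.24 on day 14, beside -0.21, -0.47, 0.03 and -0.26 for the first pair in the same order.

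Gabat, the transaminase that breaks GABA down to succinic semialdehyde, stood at 0.20 and 0.14 on day 10 replicates 1 and 2. On the swapped replicates 3 and 4 it stood at -0.68 and -0.37. Again the arrays divided by orientation, and the swapped arrays lay farther from 0. The fitted ratio of Gabat was -0.18 ± 0.15 (SE, n = 4, adjusted p = 0.755 with limma), with a 95% interval from -0.54 to 0.19. On day 14 a single array had a value for Gabat, -0.21 on replicate 1, so the recovery period could not be tested for this gene. Ssadh, the dehydrogenase that takes succinic semialdehyde on to succinate, was at 0.24 on day 10 replicate 3 and at -0.20 on day 14 replicate 1.

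Gat, the membrane transporter through which glia take up GABA, stood at -0.28 and -0.41 on day 10 replicates 1 and 2 and at 0.36 on the swapped replicate 4. Replicate 3 had no value. The unswapped arrays were thus the low ones, the reverse of Gad1 and Gabat. The fitted ratio, in which the lone swapped array weighs as much as the unswapped pair, was 0.01 ± 0.19 (SE, n = 3, adjusted p = 0.990 with limma), with a 95% interval from -0.49 to 0.51. On day 14 Gat had a value on replicate 2 only, at -0.90, the lowest of any GABA gene on any array.

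Lcch3, a Cys-loop subunit related to the beta subunits of vertebrate GABA-A receptors, had the widest spread of the 5 genes. On day 10 it stood at 1.22 and 0.57 on replicates 1 and 2, at -0.04 on replicate 3 and at -0.81 on replicate 4. The unswapped arrays were high and the swapped arrays low, with an SD of 0.87 between the 4. The fitted ratio was 0.23 ± 0.26 (SE, n = 4, adjusted p = 0.794 with limma), with a 95% interval from -0.35 to 0.82. It rests on 1 array for its sign: without day 10 replicate 1 the ratio was -0.05 ± 0.24, and without day 10 replicate 4 it was 0.55 ± 0.24, with no call in either case. The print block that holds the Lcch3 spots was itself shifted on these arrays, with medians of 0.67, 0.42, 0.16 and 0.19 as Cy5 over Cy3 on day 10 replicates 1 to 4. With every print block centred on its own median, the day 10 ratio of Lcch3 was 0.05 ± 0.19. On day 14 Lcch3 was at -0.39 on replicate 1 and at 0.11, 0.07 and 0.13 on replicates 2 to 4. In these turned, array-centred values replicate 1 stood apart from the other 3, which lay just above 0. The fitted day 14 ratio was -0.02 ± 0.23 (SE, n = 4, adjusted p = 0.999 with limma), with an interval from -0.53 to 0.49, and without day 14 replicate 1 it was 0.23 ± 0.24. Without day 14 replicate 2 it was 0.03.

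GABA-B-R3, a G-protein-coupled receptor of the GABA-B family, was the only one of the 5 to lie above 0 on every array with a value. It stood at 0.28 and 0.37 on day 10 replicates 1 and 2 and at 0.24 on the swapped replicate 4, with no value on replicate 3. Here the unswapped and swapped arrays lay on the same side and close together (SD 0.065). The fitted ratio was 0.28 ± 0.19 (SE, n = 3, adjusted p = 0.735 with limma), with a 95% interval from -0.21 to 0.78. On day 14 the single value, on the swapped replicate 4, was 0.65. This one-sidedness depends on the turn of the swapped arrays. As Cy5 over Cy3, replicate 4 was at -0.24 on day 10 and at -0.65 on day 14. The paired spots lay farther apart than the arrays: on day 10 replicates 1, 2 and 4 they differed by 0.301, 0.558 and 0.475.

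A test between the days addressed whether the ratios shifted after the return to normal food. Of the GABA genes, Gad1 and Lcch3 had enough values, and 0 of 2 passed, against 0 of 6419 features (0%). Neither had an unadjusted p under 0.05, which 6.26% of features had, and both differences lay below 0, while 45.4% of features lay above it. The ratio of Gad1 was 0.11 lower at day 14 on the log2 scale (-0.11 ± 0.20 SE, n = 8, adjusted p = 0.903 with limma), with an interval from -0.55 to 0.32. For Lcch3 the difference was -0.26 ± 0.33 (SE, n = 8, adjusted p = 0.860 with limma), with an interval from -0.98 to 0.46. It came to 0.03 without day 10 replicate 1, to -0.57 without day 10 replicate 4 and to 0.0001 without day 14 replicate 1. For Gabat, Gat and GABA-B-R3 a difference between the days was not tested, since each had 1 array at day 14. Missing values on day 14 arrays were common: of the 11509 features on at least 3 day 10 arrays, 55.8% were on at least 3 day 14 arrays.

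With the swapped arrays taken as already turned, the day 10 values differed. All 3 genes with 4 values then lay above 0 on every day 10 array, as did 24.3% of the 7545 features with 4 values. Lcch3 was at 0.66 ± 0.18 (SE, n = 4, adjusted p = 0.0707 with limma), Gabat at 0.35 ± 0.14 (SE, n = 4, adjusted p = 0.174) and Gad1 at 0.31 ± 0.11 (SE, n = 4, adjusted p = 0.112). Gat was at -0.35 ± 0.18 (SE, n = 3, adjusted p = 0.269), and GABA-B-R3 came down to 0.04 ± 0.18 (SE, n = 3, adjusted p = 0.892). None of the 5 passed under this reading either, while 304 of 11509 features did (2.64%). Gad1, Gabat and Lcch3 had an unadjusted p under 0.05, as did 28.6% of all features. At day 14 this reading put Gad1 at -0.05 ± 0.11 and Lcch3 at -0.12 ± 0.17, neither with an unadjusted p under 0.05, beside 8.86% of features and no call in 7529 (0%). As Cy5 over Cy3, neither lay above 0 on all 4 day 14 arrays, which 9.29% of features with 4 values did. The difference between the days was then -0.36 ± 0.16 for Gad1 (SE, n = 8, adjusted p = 0.293 with limma) and -0.78 ± 0.24 for Lcch3 (SE, n = 8, adjusted p = 0.195 with limma). Both had an unadjusted p under 0.05, as did 16.4% of the 6419 features, of which 0 passed (0%).

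When each print block was centred on its own median and the swapped arrays were left as deposited, a pair of choices added after the data were seen, the 304 calls of day 10 became 0, though 3008 features still had an unadjusted p under 0.05. Lcch3 then stood at 0.30 ± 0.14, Gad1 at 0.38 ± 0.13 and Gabat at 0.35 ± 0.15 at day 10. After block centring the Cy5 over Cy3 ratios of Gad1 on day 10 replicates 1 to 4 were 0.69, 0.49, 0.40 and -0.06. Replicate 4, a swapped array, thus lay on the other side of 0 from the rest, so as treated over control it fell on the side of the unswapped arrays and the division of Gad1 by orientation did not hold there. Those of Gabat were 0.20, 0.18, 0.81 and 0.23, all above 0 as before, and those of Lcch3 were 0.55, 0.15, -0.12 and 0.625, with replicate 3 below 0. The part of the print blocks in these values was not tested beyond this centring. Without block centring, at day 14 the mean Cy5 over Cy3 ratio of Gad1 was -0.05. Over the 3543 features with values on all 8 arrays, the day means correlated at 0.38 as Cy5 over Cy3 and at 0.02 as treated over control, a description across features that share arrays and dyes.

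**Figure D2:**
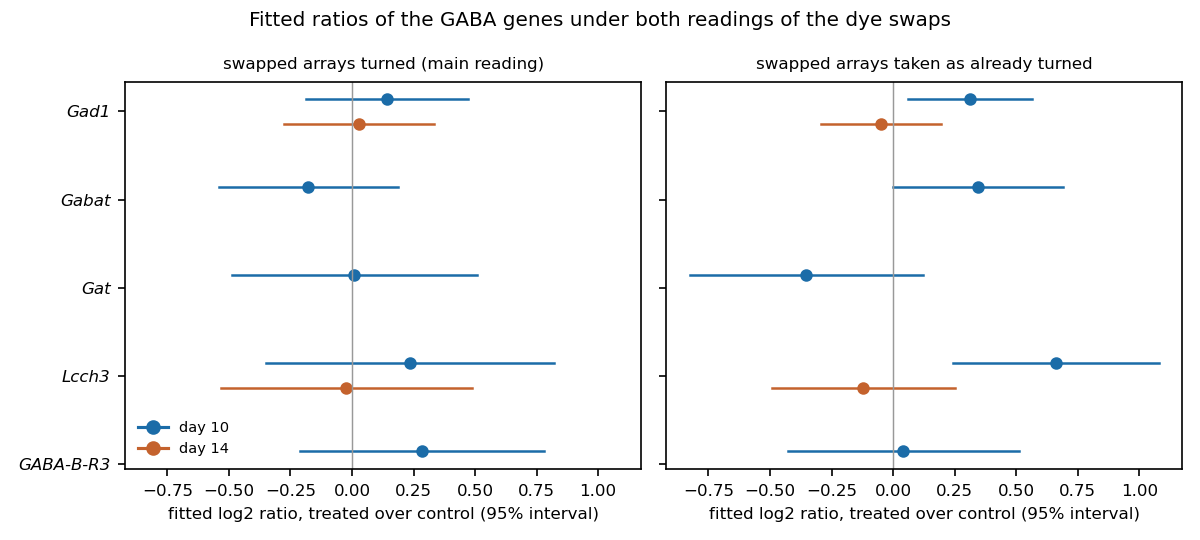
Fitted log2 ratio of treated over control RNA with its 95% interval (horizontal axis) for each GABA gene, at day 10 and day 14, with the swapped arrays turned (left) and taken as already turned (right). In the left panel every interval spans 0. In the right panel the day 10 values of Gad1, Gabat and Lcch3 move to 0.31, 0.35 and 0.66. Their intervals there leave out 0 (0.06 to 0.56, 0.001 to 0.69 and 0.24 to 1.08), with no call after adjustment.

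The GABA genes were also set among all features tested. At day 10 the fitted ratio of GABA-B-R3 exceeded that of 85.8% of features, with 80.1% for Lcch3, 66.7% for Gad1, 45.0% for Gat and 19.9% for Gabat. At day 14 Gad1 exceeded 57.3% and Lcch3 45.3% of features. The middle 95% of features spanned -0.62 to 0.51 at day 10 and -0.37 to 0.33 at day 14. All fitted values of the GABA genes lay within that span. These shares and spans hold with the swapped arrays turned. They are not given for the other reading, where Lcch3 stood at 0.66 and Gabat at 0.35 at day 10.

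**Figure D3:**
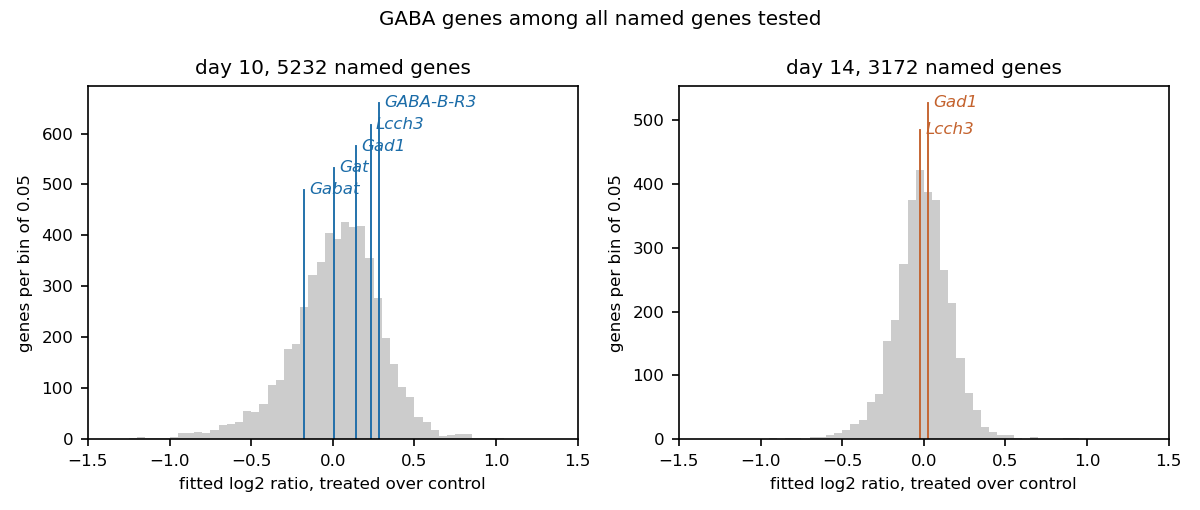
Histograms of the fitted log2 ratio of treated over control RNA (horizontal axis) over all named genes tested at day 10 (5232 genes) and day 14 (3172 genes), with the number of genes per bin on the vertical axis. Vertical lines mark the GABA genes. With the swapped arrays turned, as drawn, they lie between -0.18 and 0.28 at day 10 and between -0.02 and 0.03 at day 14.

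Each GABA gene was printed as adjacent spots of a pair, which gives a view of measurement error within an array. Over the 31 pairs of spots of GABA genes with both values, the median gap between the spots was 0.15 on the log2 scale. The widest gap, 0.69, was that of Lcch3 on day 10 replicate 1, where its spots read 1.56 and 0.87. Over all genes with paired spots the median gap on an array was 0.14 to 0.25. The array-to-array SDs of Gad1, Gabat, Gat and Lcch3 at day 10 (0.37 to 0.87) were larger than this gap, while that of GABA-B-R3 was smaller. The spots of GABA-B-R3 itself differed by 0.301, 0.558 and 0.475 on day 10 replicates 1, 2 and 4. An SD of averaged spots over arrays and a gap between single spots are unlike measures, so the contrast is only rough. These SDs are of values with the swapped arrays turned, and the contrast depends on that turn. As Cy5 over Cy3, Gat stood close together at -0.28, -0.41 and -0.36 on its day 10 arrays. GABA-B-R3 then lay on both sides of 0, at 0.28, 0.37 and -0.24.

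**Figure D4:**
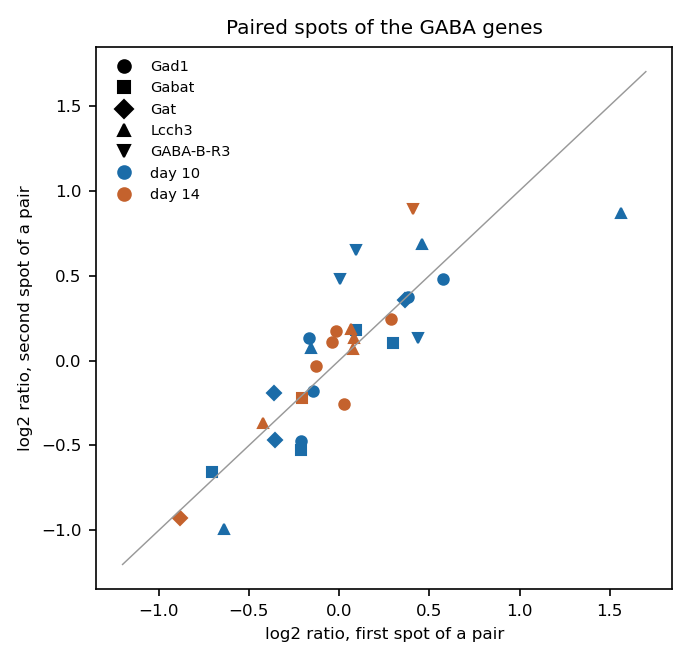
Log2 ratio of treated over control RNA of the first spot (horizontal axis) and second spot (vertical axis) of each pair of spots for the 5 GABA genes, 1 point per array; colours mark the day, symbols the gene, and the line marks equality. The point farthest from the line is Lcch3 on day 10 replicate 1, with 1.56 and 0.87.

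No gene around GABA signalling passed the test either. Of 16 measured genes of glutamate supply, other chloride channels and transporters, and GABA-B coupling, 13 could be tested at day 10 and 12 at day 14. At day 10, 9 lay above and 4 below 0 with a median of 0.02, and at day 14, 5 lay above and 7 below 0 with a median of -0.01. None passed limma's test on either day or in the difference between the days, and 2 of the 13 had an unadjusted p under 0.05 at day 10. Calls over all features were 0% in each comparison, and 6.67% had an unadjusted p under 0.05 at day 10. With the swapped arrays taken as already turned, 9 lay above and 4 below 0 at day 10 with a median of 0.10. At day 14, 7 then lay above and 5 below 0 with a median of 0.01. Again none passed on either day, while 2.64% of all features passed at day 10 and 0% at day 14. Under that reading 5 of 13 had an unadjusted p under 0.05 at day 10, beside 28.6% of features. At day 14, 1 of 12 had one, beside 8.86%.

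Glutamate is the precursor of GABA, and 4 genes of its supply and uptake were measured. At day 10, 3 of them lay above 0, and at day 14 all 4 lay below 0. With the swapped arrays taken as already turned, all 4 lay above 0 at day 10, with a median of 0.17. At day 14, 3 of the 4 then lay above 0, with a median of 0.03 and Gs2 at 0.05. Gs1, the mitochondrial glutamine synthetase, was at 0.085, 0.96, -0.03 and 0.15 on the 4 day 10 arrays, with replicate 2 far above the others (0.29 ± 0.16 fitted, n = 4; 0.09 without replicate 2). The amino acid transporter gene Eaat2 was at 0.17, 0.31 and 0.20 on day 10 replicates 1 to 3, including a swapped array, with a fitted 0.26 ± 0.15 (n = 3), which was 0.10 ± 0.17 with the swapped arrays taken as already turned. At day 14 Eaat2 was at -0.17 ± 0.13 and the cytosolic glutamine synthetase gene Gs2, made mostly in glia, at -0.23 ± 0.13 (n = 4 each). Gs2 was below 0 on all 4 day 14 arrays, as were 8.87% of features with 4 values there. In the difference between the days all 4 genes of this list lay below 0, none with a call, with a median of -0.31, against -0.03 over all features. Over all features 45.4% lay above 0 in that difference. With the swapped arrays taken as already turned, all 4 genes again lay below 0, with a median of -0.20.

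Of other Cys-loop chloride channels, GluClalpha, the glutamate-gated channel, was at 0.24, 0.25 and 0.30 on day 10 replicates 2 to 4 (0.24 ± 0.18 fitted, n = 3). At day 14 it was at 0.20 ± 0.15 (n = 4), with 3 of 4 arrays above 0, and at 0.07 without replicate 3. Taken as already turned, its values were -0.03 at day 10 and -0.12 at day 14. CG6927 was at -0.79, -0.11, 0.61 and 0.35 on day 10, again divided by orientation (0.02 ± 0.18 fitted, n = 4). Chloride transport genes included ClC-b at -0.92, -0.48, 0.04 and -0.54 on day 10. It was lower on 3 of 4 arrays, with a fitted -0.47 ± 0.17 (adjusted p = 0.727 with limma), and at -0.0005 ± 0.16 on day 14. The day 10 value was -0.23 ± 0.18 with the swapped arrays taken as already turned. ClC-c was above 0 on all 3 day 10 arrays with a value (0.32 ± 0.15), and at 0.09 ± 0.12 on day 14 (n = 4); taken as already turned, its day 10 value was 0.006 ± 0.15.

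Among genes through which GABA-B receptors act or receptors are anchored, the potassium channel gene Irk2 was at 0.13 and 0.08 on the unswapped day 10 arrays and at -0.79 and -0.85 on the swapped ones. Its fitted ratio was -0.36 ± 0.14 (n = 4, adjusted p = 0.727 with limma), and it turned to 0.46 ± 0.13 with the swapped arrays taken as already turned. Galphao, the G protein alpha subunit that GABA-B receptors can engage, was at -0.02 ± 0.13 on day 10 and at 0.25 ± 0.13 on day 14 (n = 4 each). Nlg2, a neuroligin of synapses, was above 0 on all 4 day 14 arrays, at 0.19 ± 0.14 (adjusted p = 0.999 with limma); 6.32% of features with 4 values there had all arrays above 0. It was at 0.08 without replicate 3, and at -0.07 with the swapped arrays taken as already turned.

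**Figure D5:**
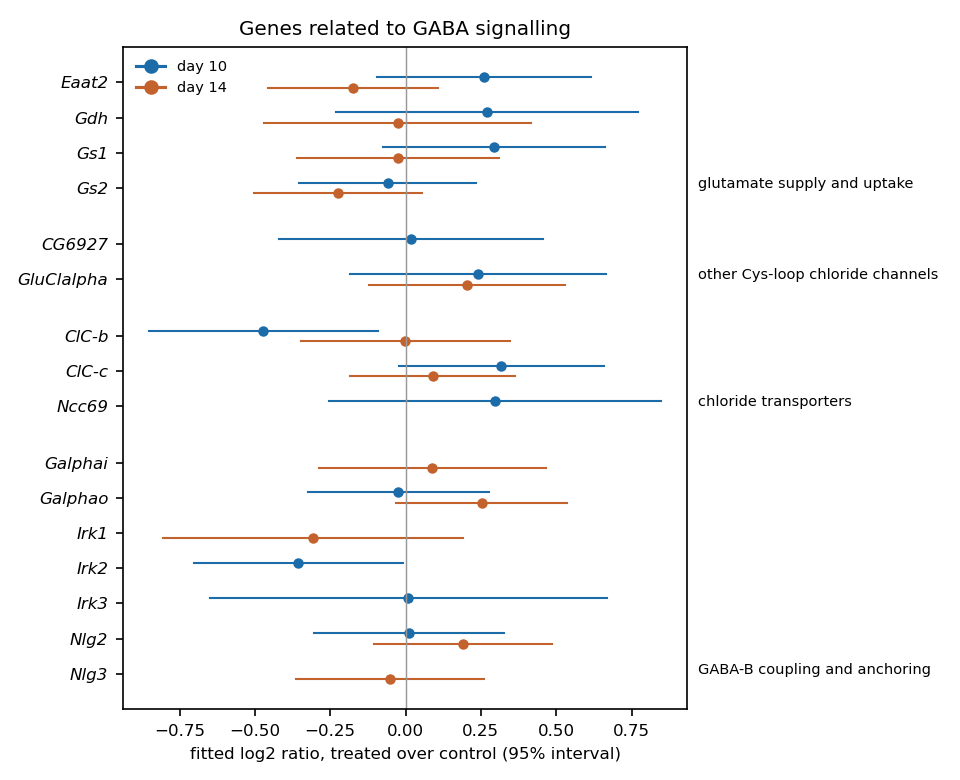
Fitted log2 ratio of treated over control RNA with its 95% interval (horizontal axis) for the 16 measured genes related to GABA signalling, grouped by list, at day 10 and day 14; a missing point had too few arrays. The intervals of ClC-b and Irk2 at day 10 leave out 0, with no call after adjustment.

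Whole heads mix neurons, glia, photoreceptors, fat body and other tissues, and in such samples fewer cells of a type and less RNA per cell cannot be told apart. Without levels, the head label could be checked only by detection: 3 of 4 named photoreceptor markers (trp, trpl and Arr1) and 1 of 4 named neuronal markers (nSyb) had values on all 8 arrays. So did 3 of 5 muscle and 3 of 8 fat body markers, so detection did not mark the samples as heads in particular. Arr2 had values on 2 arrays, and the neuronal genes Nrt and Appl on no day 14 array. Of 4 neuronal markers tested at day 10, 3 lay above 0 with a list median of 0.23, and the array medians of the list ran from -0.35 to 0.62. The neuronal gene nSyb was at 1.21 and 0.75 on the unswapped and at -0.57 and -0.43 on the swapped day 10 arrays. Nrt divided likewise. Appl was at 0.03 and -0.19 on the unswapped and at 0.31 and 0.69 on the swapped arrays. The marker ple lay below 0 on 3 of 4. The division of nSyb and Gad1 was not particular to neurons. The flight muscle actin gene Act88F was at 0.73, 0.75, -0.70 and -0.81 on day 10 replicates 1 to 4. As Cy5 over Cy3, 24.3% of features with 4 values lay above 0 on all 4 day 10 arrays. Among neuronal markers, nSyb alone could be tested at day 14, at -0.11 ± 0.16. Of 7 glial markers tested at day 10, 5 lay below 0 with a median of -0.17, and at day 14 both testable ones, alrm and Gs2, lay below 0. Medians of the other lists were -0.14 for photoreceptors, 0.10 for fat body, -0.07 for muscle and 0.26 for haemocytes at day 10, with no call in any list. At day 14 they were -0.13 for photoreceptors, -0.25 for fat body and -0.21 for muscle. There 2 of 6 fat body and 1 of 2 glial markers had an unadjusted p under 0.05, as did 3.98% of features. At day 10, 1 marker each of neurons, glia, fat body and muscle had one, as did 6.67% of features. With the swapped arrays taken as already turned, day 10 medians were 0.42 for neurons, -0.17 for glia, 0.49 for photoreceptors, 0.32 for fat body, 0.37 for muscle and 0.41 for haemocytes. Under that reading nSyb at 0.74 ± 0.15 (adjusted p = 0.0466 with limma) and Act88F at 0.75 ± 0.12 (adjusted p = 0.0445 with limma) passed at day 10. They were among 304 of 11509 features that passed (2.64%). With each print block also centred on its own median, 0 features passed. At day 14 the reading as already turned, without block centring, gave medians of -0.09 for glia, 0.32 for photoreceptors, 0.17 for fat body and 0.36 for muscle. The day 14 value of nSyb was then 0.29, and no list had a call. The part of cell makeup in the values of the GABA genes was not tested.

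The genes most like Gad1 over its 8 arrays, among 1481 named genes with values on all of them, were bocks, CG3223 and NaPi-III, with Pearson correlations of 0.99, 0.98 and 0.98. NKAIN, CG3625 and CG17122 were most like Lcch3, at 0.95, 0.95 and 0.94. The correlation between Gad1 and Lcch3 was 0.92. The points share arrays and dye orientation, and such likeness was common: 22.1% of the genes correlated with Gad1 above 0.7. The gene bocks stood at 0.94 and 0.60 on unswapped and at -0.41 and -0.28 on swapped day 10 arrays. Its sharing of the division of Gad1 follows from its selection on these same values. The other 3 GABA genes had values on fewer than 6 arrays and were not compared in this way.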

How the data were processed

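Per the series text, slides were scanned and quantified with GenePix Pro 6.0, and the authors normalised ratios with Acuity 4.0 and removed spots that failed filters on saturation, uniformity and signal to noise; blank cells were taken as such spots. The deposited table holds 1 value per spot and array, judged to be log2 ratios from their sign, size and 2 values at the log2 of 100000, both left out. Each array was centred on its median, swapped arrays were turned, and the spots of a gene were averaged. Of 27648 rows, 15116 named 1 gene in the platform annotation, 102 several and 12430 none; 14894 of the first were found by gene ID in RefSeq (Release 6 plus ISO1 MT). The genome build of the array annotation is not given in the sources used here, so no coordinates are printed.

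Both groups entered 1 fit with limma 3.58.1 (R 4.3.3), with a gene-wise dye term. A feature needed values on at least 3 arrays of each group compared. Benjamini-Hochberg adjustment covered every feature tested, with 0.05 as the threshold, and the scripts were tested on simulated data. Alternatives covered centring, print blocks (48 blocks of 576 rows, a layout taken from the row count), scaling, the dye term, the turn of swapped arrays, array weights, single arrays left out, and others given in the closing section.

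The GABA genes and the lists were chosen with earlier results of these data known. Named beside them are, in each related list, the 2 genes with the smallest p at each day, and the 3 genes most correlated with each member that has at least 6 arrays. No set test was made.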

Additional observations from a re-analysis of the deposited data

Results flagged for a closer look

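Lcch3 at day 14 was flagged because 1 of its 4 arrays stood far from the others: replicate 1 was at -0.394, while replicates 2 to 4 lay between 0.07 and 0.13. Its gap to the nearest array was 0.896 of the whole range, above Dixon's limit for 4 values. Among 17 groups of 4 arrays checked this was the only one so marked, and chance marks about 1 in 20. Both spots of Lcch3 on that array were low, at -0.42 and -0.37. The limit was checked only on turned, array-centred values. With each print block centred, replicates 1 to 4 were at -0.255, -0.122, 0.108 and 0.20, and replicate 1 did not stand apart. As Cy5 over Cy3 without block centring they were at -0.394, 0.11, -0.07 and -0.13.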

How the results depend on the processing

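No GABA gene passed the threshold under any alternative run. Of member values under alternatives other than leaving out an array, 79 kept their direction and 12 did not; for the related genes the numbers were 121 and 11. Among members, Gat at day 10 was at -0.015 without centring, -0.11 without the dye term, -0.35 with swapped arrays taken as already turned and -0.14 with that and print-block centring. Gabat at day 10 was at 0.35 under each of the last pair of settings (0.347 and 0.354). Gad1 at day 14 was at -0.056 without centring, -0.023 with print-block centring, -0.050 as already turned, -0.059 with both, and -0.020 from its first pair of spots, the last 2 chosen after seeing the data. Lcch3 at day 14 was at 0.064 with array weights. Among related genes at day 10, CG6927 was at -0.068 without centring and Galphao at 0.053 with print-block centring. Taken as already turned, day 10 gave CG6927 -0.46, Galphao 0.21, GluClalpha -0.027 and Irk2 0.46, and day 14 gave Gs2 0.051, GluClalpha -0.12, ClC-c -0.125, ClC-b 0.11 and Nlg2 -0.066. Calls over all features went from 0 to 304 at day 10 with swapped arrays taken as already turned. At day 14 they went from 0 to 39 with arrays scaled to one spread, to 3 with array weights and to 70 when that group was fitted alone. The cause of these changes was not tested.

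Leaving out single arrays moved Gad1 between 0.04 and 0.22 at day 10, between -0.046 and 0.122 at day 14, and between -0.19 and -0.01 in the difference. Lcch3 moved between -0.051 and 0.545 at day 10, between -0.189 and 0.234 at day 14, and between -0.568 and 0.029 in the difference. Gabat at day 10 moved between -0.255 and -0.099. CG6927 at day 10 moved between -0.153 and 0.188, Galphao between -0.078 and 0.064, and ClC-b at day 14 between -0.117 and 0.096. At day 14 GluClalpha moved between 0.07 and 0.33, Nlg2 between 0.08 and 0.27, Galphao between 0.17 and 0.30 and Gs2 between -0.28 and -0.15, and at day 10 Gs1 moved between 0.09 and 0.44. No count of calls left 0. Gat and GABA-B-R3 gave no value without day 10 replicate 1, 2 or 4, since a fit needed 3 arrays. With the replicate block in place of the dye term, the difference between the days gave 0 calls, with 351 features at an unadjusted p under 0.05 against 402, Gad1 at -0.11 ± 0.23 and Lcch3 at -0.26 ± 0.36. Same-numbered arrays deviated together weakly (correlations of 0.06, 0.42, 0.39 and 0.10), and 2 of 4 day 10 arrays correlated best with their own number, so the numbers were not taken as pairs; they also share dye orientation.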
